A study of Sus scrofa with 40 samples.

Results

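Warm ischemia without any later cold storage was studied in the kidney cortex, by comparing 5 cortex samples of clamped kidneys (WI-C) with 5 cortex samples of freshly removed control kidneys (Ctl-C), which are 10 of the 40 arrays of the series. The members are all samples whose titles name these conditions in cortex, whatever their values. All kidneys came from Large White pigs 3 months of age. In WI-C the renal pedicle was clamped and the organ stayed clamped for 60 min at 37 °C, outside the body, before sampling. In Ctl-C the organ was sampled as soon as it was out. The control animals had the same anaesthesia and surgery. No kidney of either group was put in cold storage or reperfused. The published methods describe a flush with cold preservation solution after clamping and do not say whether WI-C was sampled before it. Comparison groups came from the corticomedullary junction (CMJ) of control and warm ischemic kidneys and from the cortex of another 5 warm ischemic kidneys, stored at 4 °C and sampled at both 6 h (WI+CS6h) and 24 h (WI+CS24h). Each group had 5 arrays of different kidneys, so p-values measure the spread between pigs, arrays and their handling together. The model has limits: warm ischemia was ex vivo, at 1 duration, with no return of blood, and whole cortex mixes many cell types, so that fewer cells of a type and less RNA per cell cannot be told apart.

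In the kidney cortex most cells belong to the proximal tubule, which depends on oxygen to make the ATP for sodium and solute transport. When blood stops, ATP falls, and a set of genes that need no new protein for their transcription, the immediate early genes, is among the first to respond. FOS and EGR1 code for short-lived transcription factors of this set. IER3 codes for a small stress-induced protein of the same set that is also an NF-kB target and has an unstable mRNA.

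RNA was measured with porcine 60-base oligonucleotide arrays in 1 colour. Levels are given as log2 signal after quantile normalization, and a log2 difference of 1 is a doubling. A level compares 1 probe set between arrays and not 1 gene with another. A signal well above background, by the scanner software's own test, was found for 62.9% to 68.2% of spots in Ctl-C (66.3% ± 2.03, SD, n = 5) and 62.8% to 67% in WI-C (64.5% ± 1.68, n = 5). The difference of -1.86 percentage points was within the spread (exact permutation test, two-sided, p = 0.135, 0.135 after adjustment over 2 tests of array quality). Without Ctl-C array 5 it was -2.71 (exact permutation p = 0.0317). The 3′ probe exceeded the 5′ probe of the same transcript by a median of 2.24 ± 0.0368 log2 units in Ctl-C and 2.15 ± 0.0663 in WI-C over 1702 probe pairs (exact permutation test, two-sided, p = 0.0238, adjusted 0.0476). This measure of RNA wholeness moved with the groups, with a smaller 3′ excess in WI-C. The part of this measure in the results was not tested. The cortex label was not tested against the other tissue. The summed level of the proximal tubule markers, 8 found of 12, was 15.9 to 16.2 in Ctl-C and 16 to 16.2 in WI-C.

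Few identifiers passed the test. Of 35939 array identifiers tested with limma, 34 passed an adjusted p below 0.05 with a log2 difference of at least 0.5 (fold 1.41), which is 0.0946%. Higher in WI-C were 10 (0.0278%) and lower were 24 (0.0668%). An unadjusted p below 0.05 was reached by 1758 identifiers (4.89%). A symbol was available for 27.8% of all identifiers and for 11 of the 34, which belong to 10 genes. Among the higher ones 7 of 10 had a symbol, and among the lower ones 4 of 24. All 34 had WI-C arrays entirely on one side of the Ctl-C arrays; over all identifiers tested this held for 245 higher (0.682%) and 357 lower (0.993%).

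The 4 probe sequences below are shown because they carry the calls of the immediate early genes and of a histone gene, and each reads without a stop codon in at least 1 frame. They are the designed oligonucleotides as given in the array files, written 5′ to 3′, with the first base counted in the target transcript; no letters are marked. The array files gave no position in a genome, so none is stated.
FOS, from base 769: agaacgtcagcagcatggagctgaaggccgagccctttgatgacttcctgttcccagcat
EGR1, from base 1517: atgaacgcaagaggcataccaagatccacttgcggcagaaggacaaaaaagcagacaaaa
IER3, from base 301: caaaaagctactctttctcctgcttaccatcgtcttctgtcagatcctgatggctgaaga
Histone H2A gene LOC100154181, from base 329: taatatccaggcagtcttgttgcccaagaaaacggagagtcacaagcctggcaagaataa

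FOS, which pairs with JUN proteins in the AP-1 transcription factor, rose on both of its array identifiers. With the probe printed above (NM_001123113), the 5 control arrays read 6.53, 6.12, 6.37, 5.87 and 6.79, and the 5 warm ischemia arrays read 7.62, 8.08, 8.26, 7.86 and 7.72. No warm ischemia array was as low as any control array. The log2 difference was 1.57 (SE 0.23, 2.97-fold, limma adjusted p = 0.00451). The second identifier (ENSSSCT00000002650) rests on 3 probes near the 3′ end, and its arrays ran from 9.12 to 10.13 in Ctl-C and from 10.79 to 11.06 in WI-C. It was higher by 1.27 (SE 0.22, 2.41-fold, adjusted p = 0.0223). This second call was lost when 1 array other than Ctl-C 5 or WI-C 1 was left out, with adjusted p-values up to 0.09, whereas the first held in each of the 10 such fits. After another background correction (normexp) neither passed, with 0.83 (adjusted p = 0.0835) and 1.10 (adjusted p = 0.064).

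EGR1, a zinc finger transcription factor, rose from a low level. Its control arrays read 3.38, 2.77, 2.92, 2.45 and 4.05, and its warm ischemia arrays 4.17, 4.24, 4.76, 4.44 and 4.65. The highest control array, number 5, lay just under the lowest warm ischemia array. The log2 difference was 1.34 (SE 0.24, 2.53-fold, adjusted p = 0.028). The call was lost when any 1 array but Ctl-C 5 or WI-C 1 was left out, with adjusted p-values up to 0.123. It was lost with normexp (0.13, adjusted p = 0.584), in the authors' matrix, whose background is not subtracted (0.45, adjusted p = 0.175), and in a fit of the 10 arrays alone (adjusted p = 0.239).

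IER3 fell, against the direction of FOS and EGR1. Control arrays read 8.93, 8.99, 8.84, 8.82 and 8.75, and warm ischemia arrays 8.07, 7.36, 8.01, 8.21 and 7.96. The controls were close together, and WI-C array 2 stood lowest of the warm ischemia arrays. IER3 was lower by -0.95 on the log2 scale (SE 0.15, 1.93-fold, adjusted p = 0.00859). Both of its probes were lower, by -0.67 at base 301 and by -1.22 at base 805. The later probe holds the letters ATTTA, a core of destabilizing elements in many short-lived mRNAs, as did 4 of the 25 probes of lower identifiers (16%), 1 of the 12 probes of higher ones (8.33%) and 9.36% of all probes tested on the printed strand. The call was kept in the authors' matrix (-0.90, adjusted p = 0.00527) and with normexp (-0.68, adjusted p = 0.00589), and missed the threshold in the fit of the 10 arrays alone (adjusted p = 0.066).

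**Figure D1:**
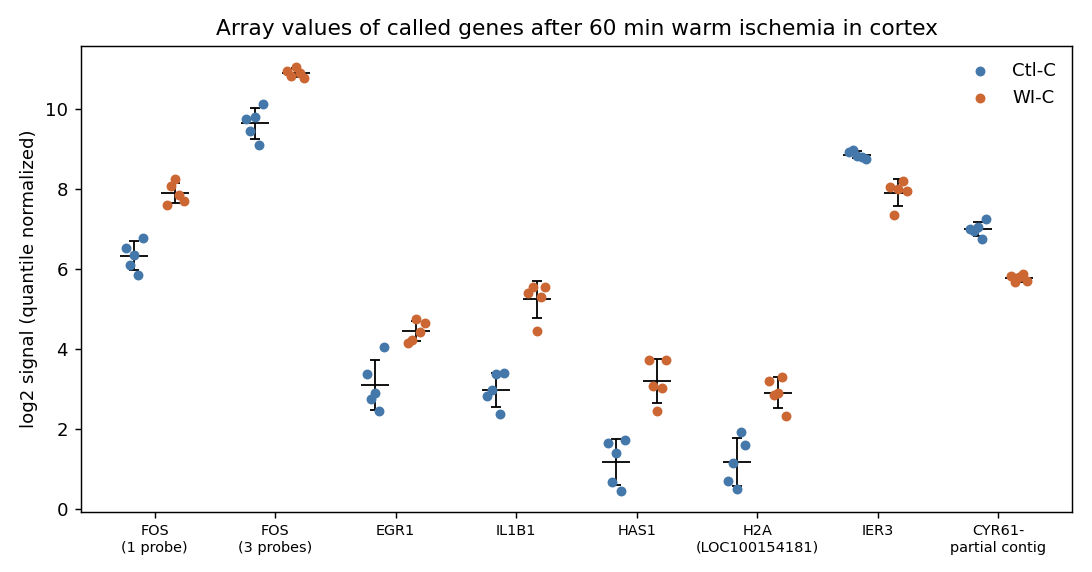
Log2 signal (vertical axis) of each of the 5 Ctl-C (blue) and 5 WI-C (orange) arrays for 8 called identifiers, with the mean and SD as bars. Blue and orange points do not overlap for any of the 8; IER3 and the contig that matches part of CYR61 are lower in WI-C, by 0.95 and 1.23 log2 units, and the other 6 are higher.

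IL1B1, an interleukin 1 beta gene, a cytokine that starts inflammation, rose. Control arrays read 2.83, 2.98, 3.38, 2.38 and 3.40, and warm ischemia arrays 5.40, 5.56, 4.46, 5.31 and 5.55. WI-C array 3 was lowest among the warm ischemia arrays, still above every control. The log2 difference was 2.26 (SE 0.32, 4.79-fold, adjusted p = 0.00407). The call was kept whichever array was left out. It was missed in the authors' matrix (0.94, adjusted p = 0.0582) and with normexp (0.30, adjusted p = 0.389). The pig has a near-identical second gene, IL1B2, whose probe differed by 0.30 (SE 0.25, adjusted p = 1); how far the probes share RNA was not tested.

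HAS1 and a histone gene were below background in every control array. HAS1 makes hyaluronan, a sugar polymer of the extracellular matrix. Its controls read 1.67, 0.68, 1.40, 0.47 and 1.73, none of them well above background, and its warm ischemia arrays 3.74, 3.09, 2.46, 3.03 and 3.73. Because a dim value gives only a bound, it was at least 2.06-fold higher in WI-C (adjusted p = 0.0118), where the bound takes for each control array the lowest signal well above background. The other hyaluronan synthases on the array did not follow: SHAS2 differed by -0.01 (SE 0.19, adjusted p = 1) and HAS3 by -0.06 (SE 0.16, adjusted p = 1). The histone H2A gene LOC100154181, a member of a large family of near-identical genes that one probe may not separate, read 0.72, 1.17, 0.50, 1.94 and 1.60 in controls, again all below the background test, and 3.20, 2.86, 2.90, 3.32 and 2.34 after warm ischemia, where 4 of the 5 were above it. It was at least 1.69-fold higher (adjusted p = 0.0145). The histone call was lost without Ctl-C 1, Ctl-C 3 or WI-C 4 (adjusted p = 0.0655, 0.0582 and 0.0573) and with 75th percentile scaling (adjusted p = 0.0539). In the fit of the 10 arrays alone neither the histone gene (adjusted p = 0.0993) nor HAS1 (adjusted p = 0.0804) passed. In the authors' matrix HAS1 differed by 0.30 (adjusted p = 0.567) and LOC100154181 by 0.30 (adjusted p = 0.265), neither a call. With normexp HAS1 (adjusted p = 0.979) and LOC100154181 (adjusted p = 0.673) missed it too.

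The remaining called identifiers with a symbol rest on weaker ground. SH2D5, which codes for an adaptor protein, was called higher and TXNDC8, a thioredoxin domain gene, lower, but neither was well above background on any of the 10 arrays, so no fold is given. RBBP4, a histone-binding subunit of chromatin complexes, was called lower (adjusted p = 0.00616), with 2 control arrays and no warm ischemia array above background, which gives no bound either; it was not called in the authors' matrix (-0.18, adjusted p = 0.356). Contig TC548704 was lower by -0.52 (SE 0.09, adjusted p = 0.0118); a reference accession ties it to ANGEL2 while its array description names another protein, so the gene is uncertain. Its call was lost without Ctl-C 1, Ctl-C 3 or WI-C 3, where it read -0.50, -0.51 and -0.48, with 75th percentile scaling (-0.57, adjusted p = 0.153), with normexp (-0.07, adjusted p = 0.163) and in the authors' matrix, where -0.25 was below the fold threshold.

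The largest fitted rise was in TC564655, a contig that the array files describe as unknown. Controls read 1.72, 0.41, 1.19, 0.36 and 2.48, and warm ischemia arrays 4.85, 4.23, 4.09, 4.92 and 4.61. All controls were below the background test and all warm ischemia arrays above it, which gave at least 5.17-fold (adjusted p = 0.00451). TC556323, which matches part of a membrane-associated guanylate kinase (MAGUK p55 member 7), was higher by 0.77 (SE 0.12, adjusted p = 0.0106), at 3.02 to 3.54 in Ctl-C and 4.05 to 4.23 in WI-C. TC564655 was not called in the authors' matrix (0.84, adjusted p = 0.404) or with normexp (0.25, adjusted p = 0.781). TC556323 was not called there either (0.19, adjusted p = 0.273, and 0.02, adjusted p = 0.998), nor with 75th percentile scaling (0.71, adjusted p = 0.109) or quantile normalization within each group (0.54, adjusted p = 0.071).

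The largest fitted falls were in identifiers without a gene. A_72_P231427 read between 8.51 and 9.74 on the 5 control arrays and 6.03, 4.38, 4.95, 4.67 and 5.51 in warm ischemia. It was well above background on all 10 arrays and lower by -3.98 on the log2 scale (SE 0.39, 15.7-fold, adjusted p = 8.97e-05). A_72_P001141 was also called lower (adjusted p = 0.000228), with 5 control arrays but only 1 warm ischemia array above background, so that its fitted difference of -4.72 (SE 0.51) rests on dim values and no fold is given. Both calls were kept with normexp, where the differences were -2.02 and -0.60, and in the authors' matrix, where they were -3.23 and -1.72. Their probes share a run of 28 bases, so they may read the same RNA and are not separate evidence. Of the 20 lower identifiers without a symbol, most are contigs described as unknown or matched to small parts of proteins of other organisms, and no gene is named for them. Beside TXNDC8 and TC609753, which were below background on all 10 arrays, 7 lower identifiers were below it on all 5 WI-C arrays, and 18 of the 34 called were above it on all 10 arrays. No called identifier was saturated on any array.

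CYR61, a matrix-associated growth signalling gene and an immediate early gene itself, was looked at after its values were seen, because a called contig is described as a partial match to it. TC625961, described as matching 10% of pig CYR61, read 7.01, 6.95, 7.07, 6.77 and 7.26 in controls and 5.84, 5.68, 5.80, 5.89 and 5.70 in warm ischemia. It was lower by -1.23 (SE 0.15, 2.35-fold, adjusted p = 0.000873). With normexp it was lower by -0.53 (adjusted p = 0.000535). The identifier of the gene itself (ENSSSCT00000007604, 4 probes) was at 7.78, 7.17, 7.53, 6.95 and 8.64 in controls and 8.34, 8.74, 8.76, 8.60 and 8.14 in warm ischemia. Its groups overlapped, and its difference of 0.90 (SE 0.26, adjusted p = 0.512) did not pass. Its 4 probes, in order along the transcript, differed by 1.15, 1.13, 0.83 and 0.49. Which RNA the contig reads was not tested.

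**Figure D2:**
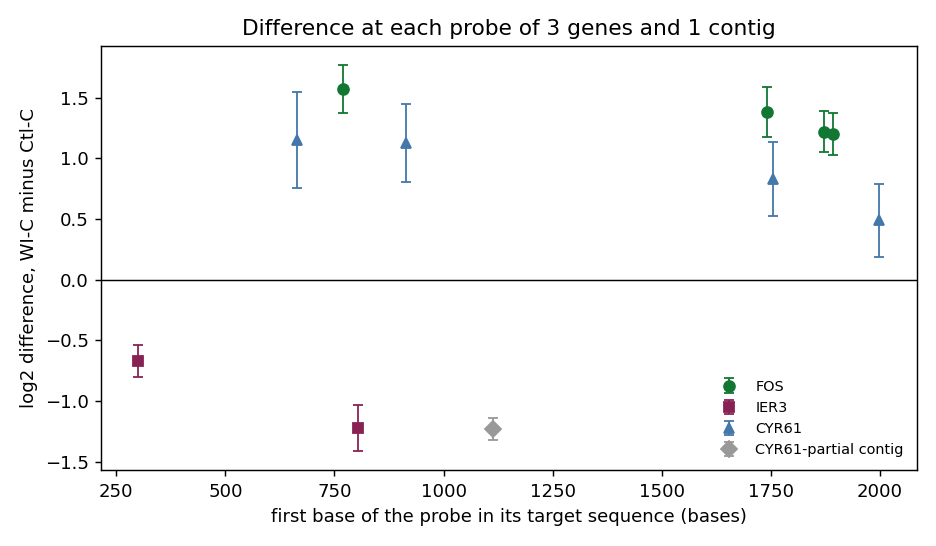
Log2 difference of WI-C minus Ctl-C (vertical axis) at each probe of FOS, IER3, CYR61 and the contig TC625961, against the first base of the probe in its own target sequence (horizontal axis), with bars for the SE of the difference of 5 and 5 arrays. The 4 FOS probes and the 4 CYR61 probes are above 0, and the 2 IER3 probes and the contig are below it.

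The corticomedullary junction of warm ischemic kidneys gives a second set of arrays for the same treatment, but not other animals: the methods list 5 kidneys per condition for both tissues. There 247 of 35938 identifiers were called (0.687%), and they included 22 of the 34 called in cortex, all 22 in the same direction (6 higher and 16 lower). FOS was higher in that tissue by 3.01 (SE 0.27) on the printed probe, EGR1 by 2.34 (SE 0.24) and IL1B1 by 2.18 (SE 0.42, adjusted p = 0.0199). IER3 was lower by -0.90 (adjusted p = 0.00905). FOS thus read 9.02 to 9.76 in the warm ischemic junction against 7.62 to 8.26 in the warm ischemic cortex, and 5.68 to 7.38 against 5.87 to 6.79 in the controls.

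Whether the change differed between the tissues was tested as an interaction. No identifier of 35934 passed (smallest adjusted p = 1, by limma), and 710 had an unadjusted p below 0.05 (1.98%), among them 10 of the 34. For FOS the rise in the junction exceeded that in the cortex by 1.44 (unadjusted p = 0.000321, by limma) on the printed probe and by 1.32 (unadjusted p = 0.000398) on the other identifier. For EGR1 the excess was 1.01 (unadjusted p = 0.0065). HAS1 went the other way, with 0.79 in the junction (SE 0.33, adjusted p = 0.321) and an interaction of -1.23 (unadjusted p = 0.0137), although its junction arrays were mostly below background. Its control arrays were below background in both tissues, so these HAS1 values rest on dim signals. None of these differences between tissues holds over all identifiers. The interaction was fitted as if the tissues were independent, since the labels do not say which cortex and junction samples share a kidney. With condition and replicate number as a random block none passed either (smallest adjusted p = 0.747).

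**Figure D3:**
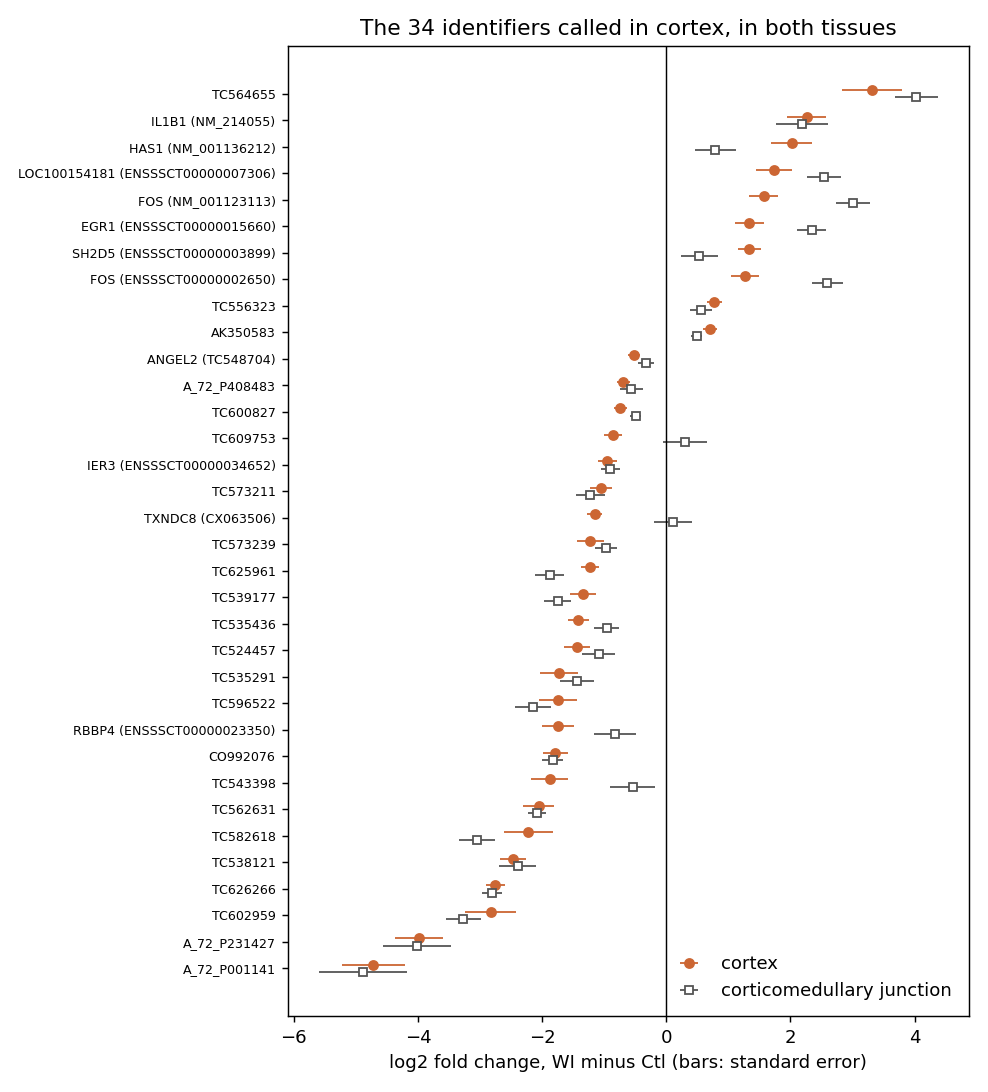
Log2 fold change, WI minus Ctl (horizontal axis), of the 34 identifiers called in cortex, in cortex (filled circles) and corticomedullary junction (open squares), with SE bars. The choice was made on the cortex values; 32 of the 34 lie on the same side of 0 in the junction, TXNDC8 and TC609753 being the others.

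Values after cold storage are given beside those of warm ischemia alone; both are differences from the same 5 control arrays, so they are not independent. FOS (printed probe) was above Ctl-C by 1.57 after warm ischemia, by 2.62 after a further 6 h of cold storage and by 2.62 after 24 h. EGR1 was above by 1.34, 2.60 and 2.48. IER3 was lower by -0.95 after warm ischemia alone, against -0.37 (adjusted p = 0.155) and -0.38 (adjusted p = 0.203) in the stored kidneys. IL1B1 stayed within 4.41 and 6.36 in the stored cortex, a range that takes in the 4.46 to 5.56 of WI-C.

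**Figure D4:**
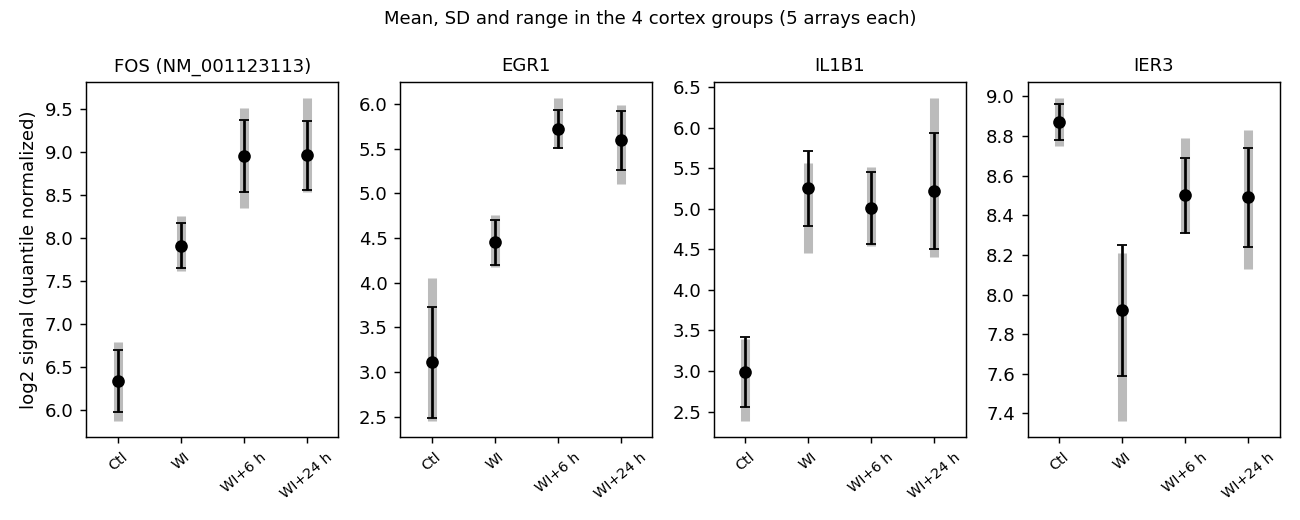
Mean (point), SD (black bar) and range (grey bar) of the log2 signal (vertical axis, not starting at 0) in the 4 cortex groups of 5 arrays for FOS, EGR1, IL1B1 and IER3. FOS and EGR1 are lowest in Ctl, between in WI and highest in both stored groups; IER3 is lowest in WI.

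Of the immediate early genes, a list of 41 with 30 on the array, 2 were called higher and 1 lower, where 0.0278% and 0.0668% of all identifiers were, and the median log2 difference was 0.19, against 0.01 over all identifiers tested. Of these, 23 were above 0 and 7 below; over all identifiers 53% were above 0. NR4A2, an orphan nuclear receptor, was at 5.07 to 5.66 in Ctl-C and 6.11 to 7.10 in WI-C without overlap, and its difference of 1.07 (SE 0.35, adjusted p = 0.66) did not pass. FOSB, a partner in AP-1, was above background on no control and on 2 warm ischemia arrays and did not pass (adjusted p = 0.107), and no fold is given. JUN read 0.25 and 0.94 on its identifiers (adjusted p = 0.366 for the second), and MYC -0.09 (adjusted p = 1). The rise was thus called for FOS and EGR1 alone among the 30.

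Of the identifiers with a symbol that did not pass, those with the smallest p in each direction follow. CD83, a surface molecule of activated immune cells, had 2 identifiers without overlap between the groups, at 1.12 (SE 0.21, adjusted p = 0.0535) and 0.89 (SE 0.18, adjusted p = 0.0746). RHOB, a stress-responsive small GTPase, read 0.86 on one identifier (adjusted p = 0.0536) and 0.06 on another. ERCC2, a DNA repair helicase, was at 1.01 (adjusted p = 0.0968) and CD80, a T cell costimulatory ligand, at 0.90 (adjusted p = 0.15). On the lower side were LOC100519314 at -1.63 (adjusted p = 0.0663), MAP3K8, a kinase of inflammatory signalling, at -0.92 (adjusted p = 0.121), ZC3H11A, an mRNA export factor, at -0.34 (adjusted p = 0.301), PIGO, an enzyme of GPI anchor synthesis, at -0.27 (adjusted p = 0.301) and C1H14orf28 at -0.43 (adjusted p = 0.394). In the authors' matrix RHOB, LOC100519314 and MAP3K8 passed the threshold.

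Of the NF-kB factors and targets, 23 found of 28, IL1B1 was called higher and IER3 lower, where 0.0278% and 0.0668% of all identifiers were, with a median of 0.13 against 0.01 over all identifiers. The phosphatases and sprouty genes that switch off MAP kinases, 4 found of 15, had no call and a median of 0.04. Their highest value was DUSP7, which read 2.42 to 3.14 in Ctl-C and 3.20 to 3.91 in WI-C and differed by 0.70 (adjusted p = 0.425), while DUSP6 was at 0.14 and SPRED1 at -0.07 (adjusted p = 1 for both).

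Heat shock proteins, the chaperones of misfolded proteins, had no call among 18 found of 23, and 17 of the 18 were above 0 with a median of 0.12. Above 0 were also 10 of the 11 gluconeogenesis genes, 19 of the 21 interferon-stimulated genes and 53% of all identifiers, whose median was 0.01. HSP70.2, the inducible chaperone, read 7.48, 6.50, 7.58, 6.71 and 6.99 in Ctl-C and 8.00, 9.92, 7.44, 7.93 and 7.24 in WI-C. WI-C array 2 stood far above the rest and the groups overlapped (1.05, SE 0.63, adjusted p = 1). FKBP4, a cochaperone, was at 7.86 to 8.10 and 8.11 to 8.90, without overlap, and differed by 0.56 (adjusted p = 0.829). HSPB1, a small heat shock protein, differed by 0.34 (adjusted p = 0.975).

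Genes induced by low oxygen through HIF had no call among 27 found of 32, with a median of 0.04. EPO, the red cell hormone, was spread widely in both groups, at 3.95 to 6.12 in Ctl-C and 3.84 to 5.91 in WI-C (0.52, SE 0.59, adjusted p = 1). TPI1, a glycolytic enzyme, was at 0.42 (adjusted p = 1) on one identifier and at -0.03 on another. DDIT4, an inhibitor of mTOR, was at 10.21 to 10.49 in Ctl-C and, without overlap, at 9.77 to 10.10 in WI-C (-0.40, SE 0.18, adjusted p = 0.977).

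Tubule injury genes had no call among 12 found of 14, with a median of 0.08. LCN2, the gene of the injury marker NGAL, differed by 0.54 (SE 0.26, adjusted p = 1), KRT8, a keratin of simple epithelia, by 0.44 (adjusted p = 0.804) and TIMP1, a metalloproteinase inhibitor, by 0.33 (adjusted p = 0.639). All 3 overlapped between the groups. The 12 members spanned -0.15 to 0.54.

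Metabolism of the tubule showed no call. Of the gluconeogenesis genes, 11 found of 11, the highest was PCK2 at 0.47, followed by GOT2 at 0.30 and PC, pyruvate carboxylase, at 0.25, with a median of 0.11. Of the fatty acid oxidation and PPARA genes, 16 found of 21, CPT2, of carnitine shuttling, was at 0.37, ACADS, an acyl-CoA dehydrogenase, at 0.25 and HADHB, a subunit of the trifunctional enzyme of beta-oxidation, at 0.23, with a median of 0.09. Of the NRF2 targets, 12 found of 17, GCLC, of glutathione synthesis, was at 0.30, NQO1 at 0.26 and TXN at 0.17, with a median of 0.05. None of these passed.

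Interferon-stimulated genes, 21 found of 22, had a median of 0.21 and no call. MX1, an antiviral GTPase, read 5.65, 6.27, 5.23, 7.13 and 9.52 in controls and 9.04, 4.86, 4.91, 9.49 and 7.63 in warm ischemia. High and low animals occurred in both groups (0.43, SE 0.88, adjusted p = 1). USP18 was at 0.41 and CXCL10, a chemokine, at 0.39 (adjusted p = 1 for both).

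The other lists held no call either. The p53 targets, 14 found of 16, had a median of 0.07, with PLK3 at 0.49 (adjusted p = 0.895), BTG2 at 0.30 and PLK2 at -0.27. The unfolded protein response, 11 found of 19, had a median of 0.06, with PDIA4 at 0.17, CALR at 0.14 and ERN1 at -0.12. The study's reference genes, 5 found of 5, had a median of 0.08, with ACTB at 0.19, SDHA at 0.17 and RPLP0 at 0.08.

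**Figure D5:**
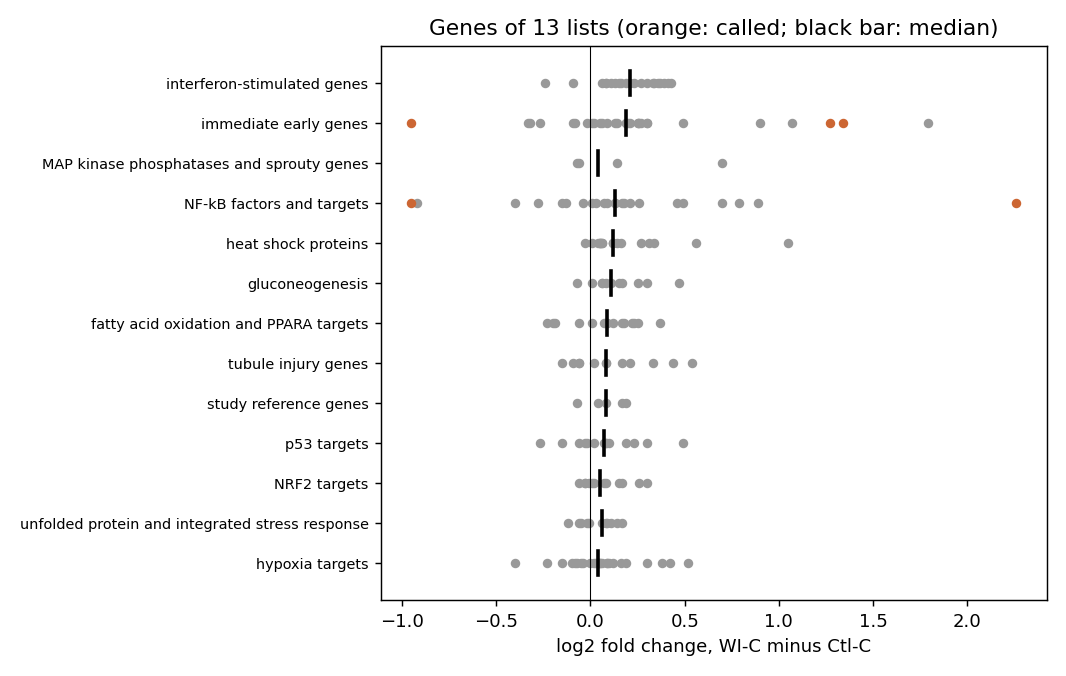
Log2 fold change, WI-C minus Ctl-C (horizontal axis), of each measured gene in 13 gene lists, 1 point per gene, with the list's median as a black bar. Called genes (orange) are FOS, EGR1 and IER3 among the immediate early genes and IL1B1 and IER3 among the NF-kB genes; medians lie between 0.04 and 0.21.

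Haemoglobin probes and the blood cell marker lists were read beside these results, and no blood gene passed the test. LOC100737768, described as haemoglobin theta 1 and chosen after its values were seen, read 10.35, 10.82, 10.32, 11.30 and 11.32 in Ctl-C and 13.37, 12.98, 13.29, 13.74 and 13.24 in WI-C. The groups were apart by 2.50 (SE 0.64, unadjusted p = 0.000989, adjusted p = 0.37 by limma), so it was not called. HBB, haemoglobin beta, was above background on 1 control and all 5 warm ischemia arrays. Its groups did not overlap, and its fitted difference of 2.59 (SE 1.06, adjusted p = 0.934) rests on mostly dim control values. The erythrocyte markers, 2 found of 5, summed to 15.7 to 15.8 in Ctl-C and 15.2 to 15.8 in WI-C, a sum dominated by SLC25A37. The leukocyte markers, 8 found of 10, summed to 8.92 to 9.55 and 8.98 to 9.73, with S100A9 below background on all 10 arrays. The blood left in these kidneys was not measured, and its part in the results, IL1B1 included, was not tested.

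Of the cell type lists, the fibroblast list (-0.168) and the thick ascending limb and distal tubule list (-0.146) were lower in WI-C by more than the SD of either group. By the same measure the collecting duct list (0.227) and the proximal tubule list (0.124) were higher in WI-C. The part of these lists in the results was not tested. Summed levels in Ctl-C and WI-C were 13.1 to 13.4 and 12.9 to 13.1 for the thick ascending limb and distal tubule (5 found of 7), 12.2 to 12.8 and 12.4 to 13 for the collecting duct (5 of 8) and 9.3 to 9.53 and 9.23 to 9.69 for the inner medulla (4 of 6, AQP4 below background). They were 7.75 to 8.02 and 7.78 to 7.98 for podocytes (3 of 6), 12.2 to 12.3 and 12.2 to 12.5 for endothelium (6 of 8), 10.5 to 11.3 and 10.7 to 11.6 for smooth muscle (3 of 5) and 11.3 to 11.5 and 11.1 to 11.3 for fibroblasts (4 of 6). They were 11.1 to 11.4 in both groups for adipocytes (7 of 7, PLIN1 below background) and 6.73 to 7.24 and 6.79 to 7.17 for skeletal muscle (5 of 5). No marker was called in any of the 12 lists.

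The fit took its spread from all 20 cortex arrays as if they were independent, although the 6 h and 24 h arrays share kidneys. Fitted to the 10 arrays of Ctl-C and WI-C alone, limma called 42 identifiers, 25 of them among the 34, and 9 calls were lost, EGR1, HAS1, IER3 and LOC100154181 among them. The split of 10 higher and 24 lower depended on the processing and on the arrays included. Quantile normalization within each group gave 10 and 97 and shifted the median of all identifiers to -0.13, normexp gave 0 and 11, and the authors' log2 matrix gave 4 and 17, of which 13 were among the 34. Scan days held both groups. Within day 1 there were 4 calls and within day 2 there was 1, with 2 or 3 arrays per group, and all 34 kept their direction in both. FOS (printed probe) differed by 1.46 on day 1 and 1.64 on day 2, EGR1 by 1.30 and 1.35, IL1B1 by 1.95 and 2.63, and IER3 by -0.79 and -1.20. One slide held an array of each group, where FOS differed by 1.60, EGR1 by 1.87, IL1B1 by 2.57 and IER3 by -1.03. Without WI-C array 1 there were 63 calls, 39 higher and 24 lower.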

How the data were processed

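The authors extracted RNA with a column kit that included DNA removal, labelled it with Cy3 and scanned Agilent porcine 44k arrays; Feature Extraction 11.5.1.1 wrote a deposited processed intensity per spot, with background already subtracted. The deposited log2 matrix, with R 2.15.2 and limma named as the authors' tools, matched the quantile normalized log2 median spot signal (99.98% of values of 32153 identifiers with 1 spot, within 1e-08); its column medians were 5.32 to 5.35, so that it is not centred on genes. It served as an alternative. Neither the spots nor the matrix carry a sequencing depth; the number of arrays limits the precision.

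Groups came from sample titles. Here, log2 processed signals of non-control spots (43803 probes) without outlier flags were quantile normalized over the 40 arrays and averaged by transcript identifier. No floor was set. limma 3.58.1 (R 4.3.3) was fitted to the 20 cortex arrays with a term per group, and to all 40 arrays for the interaction; Benjamini-Hochberg adjustment ran over all identifiers. The exact permutation tests of array quality used all 252 splits. On simulated data for this comparison with 35799 rows, a true log2 change of 2 was called in 92% of 50 rows up and 92% down, one of 1 in 56% and 58%, and 8 of 35599 unchanged rows were called. The simulated noise was normal and independent between arrays and between rows. Shared kidneys and outlying arrays were not simulated, so these rates may differ from those of the real comparison.

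Named genes are the called identifiers with a symbol, the 2 largest rises and 2 largest falls without one, FOS, EGR1 and IER3, the 5 nearest identifiers not called in each direction and the 3 largest differences in each list among genes above background on at least 5 of 10 arrays; of several identifiers of a gene, the brightest stands for it in a list. TC625961 and CYR61, FOSB, the haemoglobin genes, IL1B2 and the other hyaluronan synthases were added after their values were seen. The members and lists were chosen with earlier results of these data known. Some genes and 1 list are not reported here. Replicate numbers are shared between groups but did not pair the samples: deviations of same-numbered Ctl-C and WI-C arrays correlated between -0.18 and 0.16. No 2 arrays were identical (correlations 0.975 to 0.995). Alternatives covered scaling, background, filters, probes, outlier spots, the authors' matrix, blocks, samples fitted, array weights, the fold threshold and leaving out each array.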

Additional observations from a re-analysis of the deposited data

Results flagged for a closer look

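In 15 of 164 groups of 5 arrays, 1 array stood apart from the other 4 by more than Dixon's 95% limit for the gap over the range, where chance gives about 1 in 20. Among called identifiers, IER3 was lowest on WI-C array 2 (7.36, the others 7.96 to 8.21) and IL1B1 on WI-C array 3 (4.46, the others 5.31 to 5.56). TC548704, tied to ANGEL2 with doubt, was lowest on WI-C array 3 (3.97), AK350583 on Ctl-C array 5 (3.31) and TC600827 highest on Ctl-C array 3 (7.39).

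WI-C array 2 was highest for HSP70.2 (9.92, the others 7.24 to 8.00), for the antioxidant genes GCLC (6.02, the others 5.28 to 5.47) and NQO1 (6.35, the others 5.57 to 5.75), and for CD80 (3.46, the others 2.78 to 2.96). Ctl-C array 5 was highest for DUSP6 (11.89, the others 11.19 to 11.28), LCN2 (5.67, the others 4.90 to 5.04) and CXCL10 (10.79, the others 9.55 to 9.75). CXCL10 was lowest on WI-C array 3 (9.66), MAP3K8 on Ctl-C array 4 (6.66), and ZC3H11A was highest on WI-C array 1 (5.54).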

How the results depend on the processing

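Of the 34 called identifiers, 6 were called in each of the 15 processing alternatives they entered and in all 10 fits without 1 array: A_72_P001141, A_72_P231427, TC625961, TC535436, TC538121 and TC602959. The 15 leave out the fits within a scan day, where of these 6 only TC535436 was called, on 1 of the 2 days. The alternative without a fold threshold could lose no call. None of the 34 changed sign in any alternative. Calls numbered 23 with 75th percentile scaling (14 lower), 107 with quantile normalization within each group (97 lower), 11 with normexp (0 higher, 11 lower), 21 in the authors' matrix (4 higher), 62 in a fit of all 40 arrays (23 higher, 39 lower) and 147 with array weights (65 higher, 82 lower). Within scan day 1 there were 4 (0 higher, 4 lower) and within day 2 there was 1 (0 higher, 1 lower). Leaving out 1 array gave 26 to 63 calls, with 7 to 39 higher and 19 to 30 lower. The cause was not tested, apart from the fewer arrays within a day. The difference in the share of spots above background ran from -2.71 to -1.4 percentage points over these fits.

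With the replicate number as a block, which did not pair the samples, 27 identifiers were called, and EGR1 (adjusted p = 0.0746), FOS on 3 probes (0.0746), HAS1 (0.0567), IER3 (0.0502) and TC548704, whose gene is uncertain (0.056), were not. No sample correlated best with its own number. No interaction was called in any alternative (smallest adjusted p = 0.747, by limma).

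Uncalled genes that changed sign were MX1 (-0.05), USP18 (-0.05) and RPLP0 (-0.09) on the brightest probe; DUSP6 (-0.20), EPO (-0.41), MX1 (-1.40) and SPRED1 (0.02) within scan day 2; SPRED1 in the authors' matrix (0.03) and without Ctl-C array 4 (0.01; -0.12 to 0.01 over such fits); and MX1 without WI-C array 1 (-0.04) or 4 (-0.15; -0.15 to 1.12). The cause was not tested. Signals near background limit HAS1, LOC100154181, RBBP4, SH2D5 and TXNDC8.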
